A study of Mus musculus with 18 samples.

Results

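The response to estradiol was measured in the arcuate nucleus of ovariectomized wild-type female mice of the C57/BL strain. RNA was sequenced from 3 libraries of oil-injected females and 3 libraries of females injected with estradiol benzoate, an esterified form of 17-beta-estradiol. These 6 libraries are part of a set of 18. The other libraries come from females that lack estrogen receptor alpha (ERKO) and from females called KIKO, whose only estrogen receptor alpha carries a mutation that prevents direct binding to estrogen response elements, again with 3 oil and 3 estradiol (E2) libraries each. Estradiol benzoate was injected at 250 ng on day 5 after ovariectomy and at 1500 ng on day 6, control females of all genotypes received oil, and the females, fasted for 1 h, were killed 24 h after the day 6 dose. All groups compared here lack ovarian hormones other than the injected one. The labels do not say whether a library is 1 animal or a pool, so the p-values measure the spread between libraries.

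Estradiol acts on neurons and glia mainly through estrogen receptors, ligand-dependent transcription factors that bind DNA at estrogen response elements or act through other DNA-bound factors and through kinases at the membrane. The arcuate nucleus lies at the base of the hypothalamus and holds the KNDy neurons, which make kisspeptin, neurokinin B and dynorphin and relay estrogen negative feedback to the neurons that release gonadotropin-releasing hormone. It also holds the neurons that set food intake (Agrp and Npy, or Pomc and Cartpt), dopamine neurons that restrain prolactin, and growth hormone-releasing hormone neurons. In rodents estradiol is known to lower arcuate kisspeptin and neurokinin B, to induce the progesterone receptor and to reduce feeding.

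Values are FPKM, the number of sequenced fragments of a gene scaled to its length and to the depth of the library. Changes are differences of group means on the scale of log2(FPKM + 1), E2 minus oil, given with their standard error. That scale understates the change of low genes. The 14774 genes whose FPKM averaged 0.5 or more over the 18 libraries were tested with limma over all 18 libraries, and "past the threshold" means a Benjamini-Hochberg adjusted p under 0.05. A gene is said to have groups that do not overlap when all 3 E2 libraries lie above, or all 3 below, all 3 oil libraries. Relative sequencing depth ran from 0.778 to 0.964 over the 6 wild-type libraries and from 0.728 to 1.503 over all 18, as inferred from the deposited confidence bounds, where 1 is the geometric mean of the 18.

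The libraries carried arcuate RNA. All 17 markers of arcuate neurons were above the filter, Agrp lay between 164.6 and 337.0 FPKM and Pomc between 701.4 and 1418 FPKM. All 12 ventromedial nucleus markers were above the filter too, so passing it does not single out the arcuate nucleus. Paraventricular and supraoptic nucleus markers summed to 7413, 7134 and 4560 FPKM in oil and to 5647, 4075 and 4451 in E2. Arcuate neuron markers summed to 5562, 4778 and 5116 in oil and to 3772, 3464 and 3190 in E2. Levels of some tissue markers were not equal between the libraries, and whether the dissections differed in their edges was not tested. The summed level of 10 measured pituitary and pars tuberalis markers was 171 FPKM in oil 1, 784 in oil 2 and 911 in oil 3, against 143, 145 and 928 in E2 1, 2 and 3. Chga made up most of this sum in every library, at 164, 528 and 517 FPKM in oil and 137, 139 and 539 in E2. Cga, the common subunit of the glycoprotein hormones, was at 0, 170 and 307 FPKM in the oil libraries and at 0, 0.424 and 294 in the E2 libraries, while Gh and Prl were at 0 in all 6. Markers of mural and fibroblast-like cells followed the same division, with sums of 93.6, 233 and 270 FPKM in oil and 86.7, 78.7 and 247 in E2. Oil 2, oil 3 and E2 3 were thus the high libraries for both lists, a division that crosses the treatment groups. Oil 1 had the highest level of 22 of the 32 measured interferon and MHC class I genes. E2 3 had a low sum of ventromedial nucleus markers, 136 FPKM against 204 to 217 in the other 5. One library outside wild type, ERKO E2 3, stood apart from the rest, with a total of 628541 FPKM against 418191 to 492135 in the other 17, and it enters the shared estimate of the spread.

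**Figure D1:**
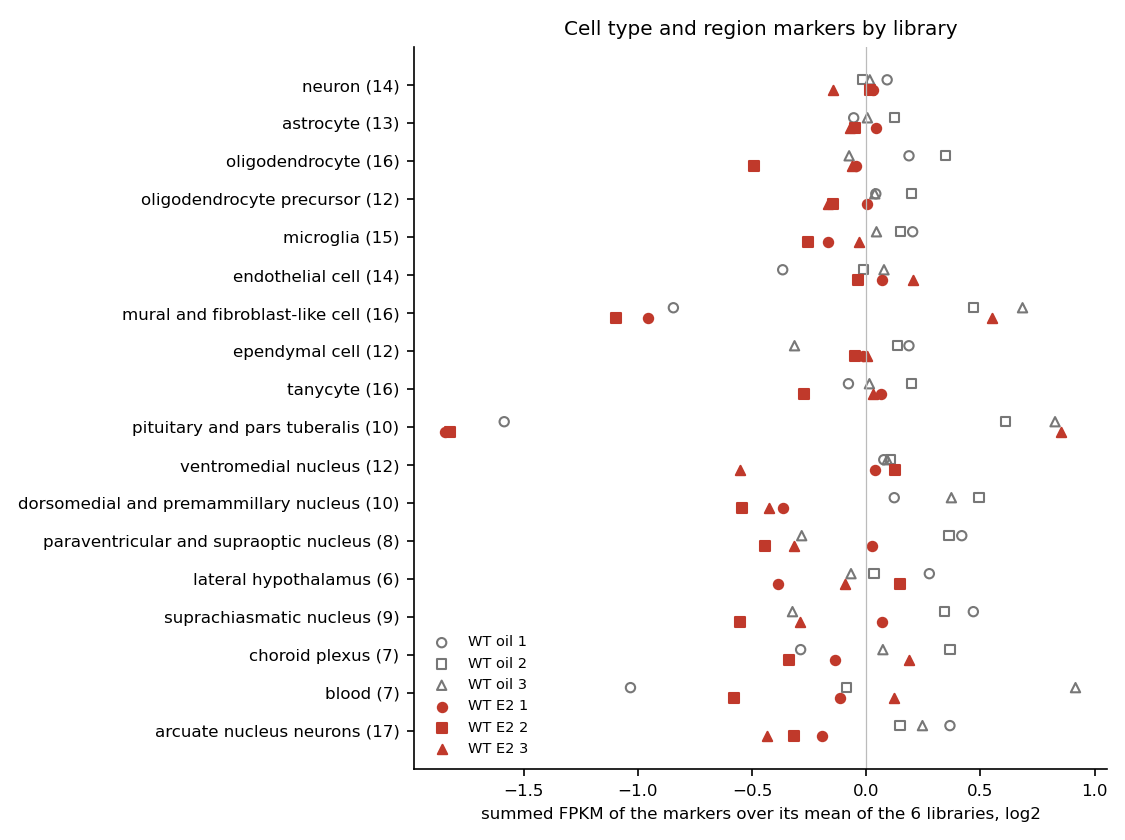
Summed FPKM of each marker list in the 6 wild-type libraries, divided by the mean of the 6 and put on a log2 axis, with the number of markers measured in parentheses. Open grey symbols are oil libraries and filled red symbols are E2 libraries. For pituitary and for mural and fibroblast-like markers, oil 2, oil 3 and E2 3 lie together at the right, and for arcuate neurons all 3 E2 libraries lie to the left of all 3 oil libraries.

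In wild type 89 of 14774 genes rose (0.602%) and 27 fell (0.183%). The counts of calls in the gene lists below are to be read beside these shares, and some genes are in more than 1 list. Of the rises 6 reached a log2 change of 2 or more, 29 lay from 1 to under 2, and 54 were under 1, with a median of 0.88. Of the falls 3 reached 2 or more, 14 lay from 1 to under 2, and 10 were under 1, with a median of -1.14. The groups did not overlap for any of the 116 genes. The same separation was found for 1385 genes on the higher side (9.37%) and 953 on the lower side (6.45%) of all genes tested, so it is no call by itself. The median change of all genes tested was 0.01.

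Without ERKO E2 3 in the fit 284 genes rose (1.92%) and 113 fell (0.765%), and these included all 116. Most of these changes were small. Under a log2 change of 1 lay 247 of the 284 rises and 90 of the 113 falls, with medians of 0.53 and -0.64. The genes added in this way are described below as past the threshold without ERKO E2 3 but not with it, which compares these 2 fits and says nothing of other settings. The pituitary marker level of each library, the log2 of the marker sum, was also entered as a covariate. Most of that sum was Chga in the wild-type libraries. With this covariate 88 genes rose and 31 fell, and 96 of the 116 were among them. The other 20 had adjusted p-values of 0.050 to 0.073, and their changes moved little: that of Gfra1 went from 1.43 to 1.44 and that of Pcsk1 from -1.06 to -0.98.

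**Figure D2:**
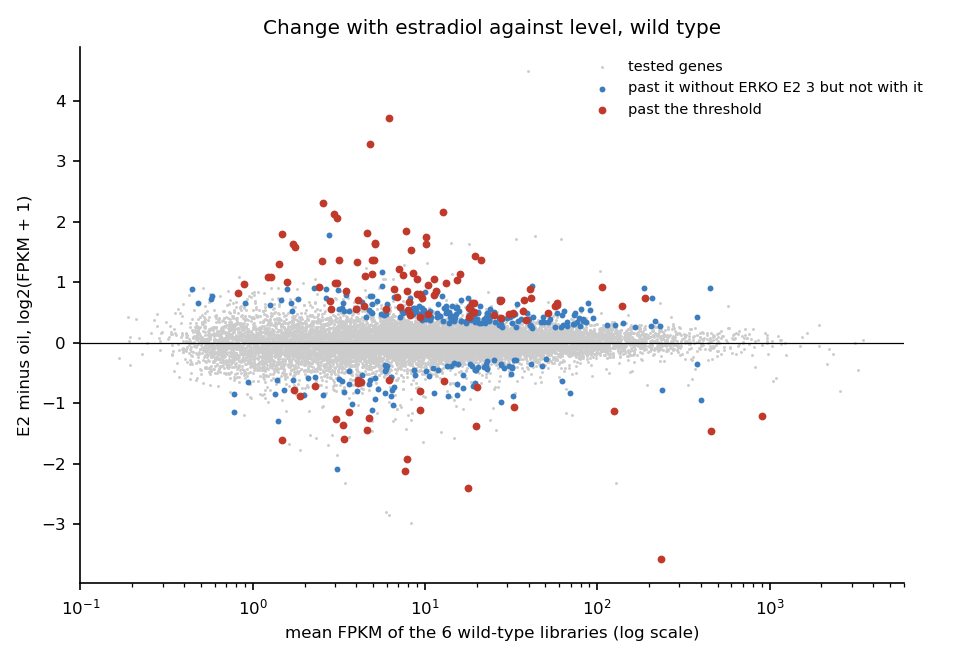
Change with estradiol in wild type, E2 minus oil on log2(FPKM + 1), against the mean FPKM of the 6 wild-type libraries on a log axis. Red points are the 116 genes past the threshold, blue points the 281 past it without ERKO E2 3 in the fit but not with it, and grey points the other tested genes, of which 3 with a mean under 0.1 FPKM lie outside the plot. Most of the blue points lie between -1 and 1.

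Among steroid receptors and their cofactors the known targets Pgr and Greb1 passed. Of 22 measured genes 2 rose, the progesterone receptor Pgr and the receptor cofactor Greb1, and none fell, with a median change of 0.02. Esr1, which encodes estrogen receptor alpha, was at 5.38, 6.92 and 11.9 FPKM in oil and at 3.45, 5.24 and 5.88 in E2. These ranges overlap, and the change of -0.59 ± 0.32 was not past the threshold (adjusted p = 0.59, limma). Nrip1, a corepressor that estrogen induces in other tissues, was at 1.23, 2.01 and 2.00 in oil and at 2.79, 3.54 and 4.38 in E2, past the threshold without ERKO E2 3 but not with it (adjusted p = 0.028 against 0.41). Of 30 genes known to respond to estrogen in uterus, breast or pituitary 5 rose (Greb1, Pgr, Oxtr, Myc and Cckar), and none fell, with a median change of 0.14. The rises were 16.7% of that list, against 0.602% of all genes tested.

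Promoters are shown here because they bear on which of these genes carry the letters of an estrogen response element close to their start. RefSeq promoters of 250 bases before to 50 after the start (build GRCm38.p6) were matched by symbol for 11559 of the 14774 tested genes, and the letters GGTCA, any 3 letters and TGACC, a palindrome, was searched on both strands. The exact motif was in 23 of all 32851 promoters (0.0700%) and in 1 of 14790 promoters of tested genes, that of Pde10a. At least 9 of the 10 fixed letters were found in 102 promoters of tested genes (0.690%), in 1 of 83 of the genes that rose, Mad2l1, and in 0 of 28 of those that fell. Without ERKO E2 3 in the fit, 4 of 284 promoters of risen genes (1.41%) and 0 of 108 of fallen genes had such a match. These 4 matches follow as 29 bases of the gene's own strand, 5′ to 3′, with the 13 letters of the match in capitals.
Pde10a, chr17:8849994-8850022, plus strand: gggcggttGGTCAACCTGACCagagggag
Mad2l1, chr6:66535099-66535127, plus strand: accttgtaGGTCACCAGGACCtggaacaa
Ica1, chr6:8778529-8778557, minus strand: tgtagacaGGTCATTGTGACGcgaacgct
Dleu7, chr14:62293130-62293158, minus strand: cagctttgGGTCATTTTGAGCccattctg
Counted from 1 at the 5′ end of the motif, the match of Mad2l1 differs from it by T9G, that of Ica1 by C13G and that of Dleu7 by C12G. The match of Pde10a begins 17 bases after the gene's start and lies in the transcribed part, and those of Mad2l1, Ica1 and Dleu7 begin 114, 65 and 171 bases before it.

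Mad2l1 encodes a protein of the spindle checkpoint and lies on chromosome 6. It was at 4.73, 2.51 and 5.18 FPKM in oil and at 20.8, 23.7 and 19.8 in E2, a change of 2.16 ± 0.18 (limma, adjusted p = 1.1e-05). Pde10a, a cyclic nucleotide phosphodiesterase, was at 8.34, 7.11 and 9.53 in oil and at 11.1, 11.5 and 12.6 in E2, and its change of 0.46 ± 0.29 was past the threshold without ERKO E2 3 but not with it (adjusted p = 0.045 against 0.67). The 250 bases before the start of Mad2l1 (chr6:66534971-66535220, plus strand) are given to show the match among its neighbours, with the 13 letters in capitals.
Mad2l1 promoter: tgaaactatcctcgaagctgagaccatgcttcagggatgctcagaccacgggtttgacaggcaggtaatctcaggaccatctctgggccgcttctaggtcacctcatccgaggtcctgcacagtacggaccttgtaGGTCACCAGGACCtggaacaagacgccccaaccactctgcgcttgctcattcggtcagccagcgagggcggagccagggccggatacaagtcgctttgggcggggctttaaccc
One arm of the motif, GGTCA on either strand, was found in 43.4% of promoters of risen genes, in 32.1% of those of fallen genes and in 37.9% of those of all tested genes. These matches are letters in the given windows and were not tested as binding sites, and more distant sequence was not searched.

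KNDy and reproductive peptide genes held 4 of the 27 falls. Of 19 measured, 4 fell (Kiss1, Tac2, Tacr3 and Pdyn), which is 21.1% against 0.183% of all genes tested, and none rose. The median was -0.24 against 0.01 over all genes. The 4 fell by unequal amounts. Kiss1 was 11.4 times lower in E2 by its mean FPKM, whereas Tac2, which the same neurons make, was 2.32 times lower. Prok2, a secreted prokineticin, had groups that did not overlap on the higher side (13.1, 3.70 and 11.0 in oil, 19.8, 16.7 and 22.1 in E2), but its change of 1.14 ± 0.50 was not past the threshold (limma, adjusted p = 0.44). In these tissue libraries fewer cells of a type and less RNA per cell cannot be told apart.

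Beyond the KNDy peptides, 38 neuropeptide precursor genes had a median of -0.20, with 24 below 0 and 14 above. The rises in that list were those of Rln3, Nts and Ecel1, and the falls those of Vgf and Nxph3. Ecel1 encodes a peptidase and is not itself a peptide precursor. The feeding peptides did not pass the threshold in either direction. Agrp, which stimulates feeding, was at 174, 165 and 198 FPKM in oil and at 337, 266 and 255 in E2 (0.67 ± 0.33, adjusted p = 0.51, limma). Pomc, the precursor of a peptide that suppresses feeding, was at 1418, 1162 and 1232 in oil and at 909, 861 and 701 in E2 (-0.63 ± 0.25, adjusted p = 0.38). Cartpt was at 506, 560 and 499 in oil and at 330, 273 and 219 in E2, past the threshold without ERKO E2 3 but not with it (-0.94 ± 0.29, adjusted p = 0.017 against 0.20). All 3 genes had groups that did not overlap, while Npy overlapped (957, 886 and 904 against 1172, 849 and 1020). Over the 34 feeding genes 1 rose, the ghrelin receptor Ghsr, and 1 fell, Bdnf, and the median was -0.02.

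The enzymes that cut peptide precursors split in direction. Among 26 genes of prohormone processing and dense core vesicles 1 rose and 2 fell, and the median was -0.03. Pcsk6, a proprotein convertase, was at 6.00, 5.54 and 7.26 FPKM in oil and at 10.8, 11.9 and 12.1 in E2, a change of 0.80 ± 0.11 (limma, adjusted p = 0.00093). Pcsk1, the convertase of the regulated pathway in neuroendocrine cells, was at 32.1, 43.7 and 59.3 in oil and at 17.1, 18.9 and 26.6 in E2, a change of -1.06 ± 0.23 (adjusted p = 0.038) that kept its call in only 2 of the 6 fits that left out 1 wild-type library. Its groups stayed apart by less than the range of the oil libraries. Ecel1, a membrane peptidase of the endothelin-converting enzyme family, was abundant and narrow in spread, at 126, 166 and 133 in oil and at 218, 263 and 225 in E2 (0.73 ± 0.11, adjusted p = 0.0030). The granule proteins Scg2 (407, 415 and 536 against 568, 694 and 822) and Ptprn (469, 403 and 401 against 322, 355 and 324) had groups apart in opposite directions and did not pass, although Ptprn did without ERKO E2 3. Vgf, a granule peptide precursor, fell by 1.46 on the log2 scale.

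Peptide receptors rose where they passed. Of 31 measured, 3 rose (Oxtr, Cckar and Npr2; 9.68%, against 0.602% of all genes tested) and none fell, with a median of -0.00. The call of Cckar was lost in each of the 6 fits that left out 1 wild-type library. Npr2, the guanylyl cyclase receptor for C-type natriuretic peptide, is an example of a small change with little spread: it was at 45.1, 42.8 and 40.3 FPKM in oil and at 60.7, 61.3 and 60.1 in E2, a ratio of 1.42 and a change of 0.50 ± 0.09 (limma, adjusted p = 0.011). The bombesin-like receptor Brs3, which takes part in energy balance, was at 2.37, 3.60 and 2.89 in oil and at 1.60, 1.54 and 1.82 in E2 and passed without ERKO E2 3 but not with it (-0.57 ± 0.16, adjusted p = 0.037 against 0.14).

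Among growth factors and their receptors the single rise was that of Gfra1, the GDNF co-receptor, on chromosome 19. It was at 9, 10.7 and 10.1 FPKM in oil and at 20.5, 33.7 and 32.6 in E2, a change of 1.43 ± 0.31 (limma, adjusted p = 0.038, and 0.00026 without ERKO E2 3). Its signalling partner Ret was at 3.57, 4.13 and 4.41 in oil and at 4.84, 8.39 and 6.40 in E2, with groups that did not overlap and a change of 0.56 ± 0.20 that was not past the threshold (adjusted p = 0.31). Bdnf fell, and the other 48 of the 50 growth factor genes did not pass, with a median of -0.00 for the list. Of 18 genes of the insulin-like growth factor system Igfbp2 fell and Stc1 rose. Stc1 (stanniocalcin, which inhibits a protease of IGF-binding proteins) went from 1.57, 2.58 and 1.64 in oil to 3.50, 3.60 and 3.92 (0.69 ± 0.14, adjusted p = 0.029).

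The dopamine, prolactin and growth hormone list had 4 rises in 23 genes (Nr4a2, Nts, Socs2 and Stat5a) and no fall. The rises were 17.4%, against 0.602% of all genes tested, and Nts and Nr4a2 are also counted in other lists. Slc6a3, the dopamine transporter, was lower in E2 with groups apart (3.17, 6.82 and 6.33 in oil, 1.67, 2.45 and 2.19 in E2), past the threshold without ERKO E2 3 but not with it (-1.01 ± 0.22, adjusted p = 0.018 against 0.050). Gch1, which makes the cofactor of tyrosine hydroxylase, was at 9.15, 10.6 and 10.4 in oil and at 6.66, 7.61 and 7.13 in E2 and passed in the same way (-0.44 ± 0.11, adjusted p = 0.037 against 0.094). Th itself overlapped (92.1, 117 and 95.1 against 104, 89.5 and 66.5). Ghrh was at 131, 126 and 124 in oil and at 188, 174 and 164 in E2, and its change of 0.46 ± 0.26 was not past the threshold (adjusted p = 0.60). The somatostatin receptor Sstr2 was higher in E2 with groups apart (6.54, 6.93 and 10.9 against 12.7, 19.9 and 13.6) and passed without ERKO E2 3 but not with it (adjusted p = 0.025 against 0.068).

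Few ion channels passed, and those that did rose. Of 44 genes of calcium, sodium and other cation channels 2 rose, among them Accn4, and none fell, with a median of -0.02. Groups were apart on the higher side for 9 (20.5%, against 9.37% of all genes tested) and on the lower for 2 (4.55%, against 6.45%). Accn4, an acid-sensing channel family member also called Asic4, was at 1.48, 1.36 and 1.12 FPKM in oil and at 4.39, 5.93 and 4.65 in E2 (1.36 ± 0.15, limma, adjusted p = 0.00016). Every E2 library was well above the highest oil library. The T-type calcium channel Cacna1g (18.6, 13.3 and 16.4 against 22.0, 23.7 and 22.4) had groups apart but did not pass (limma, adjusted p = 0.62).

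Of 64 potassium channel genes only Kcnk2 passed (a rise), and the median was -0.04 with 40 genes below 0. Kcnk10, a related two-pore channel, lay in the opposite direction at 4.17, 4.36 and 5.23 in oil and 2.20, 2.05 and 2.21 in E2, past the threshold without ERKO E2 3 but not with it (-0.82 ± 0.21, adjusted p = 0.0037 against 0.089). Lrrc38, an auxiliary subunit of large-conductance potassium channels that was in no list, rose from 1.08, 0.997 and 0.823 to 3.51, 5.07 and 3.58, a change of 1.35 ± 0.14 (limma, adjusted p = 0.00010).

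Few synaptic genes passed. Of 42 synaptic vesicle genes 27 had changes below 0, with a median of -0.04, and 1 rose and 1 fell, both synaptotagmins, the proteins that couple vesicle fusion to calcium. Syt6 was at 6.92, 5.82 and 8.32 FPKM in oil and at 14.4, 18.2 and 14.1 in E2 (1.05 ± 0.12, limma, adjusted p = 0.00018). Syt12 was at 7.88, 6.95 and 8.26 in oil and at 4.92, 4.95 and 4.15 in E2 (-0.62 ± 0.11, adjusted p = 0.0089). In the GENCODE vM21 annotation 17.2% of the exonic bases of Syt12 overlap a gene on the opposite strand (A930001C03Rik). The strand setting of the counting is not given in the sources used here. Syt12 is not alone in this. The share was 65.7% for Fam151a (Acot11), 19.2% for Nefm (Nefl), 14.4% for Bdnf (Gm45346) and 13.9% for Map3k15 (Pdha1). Hspa1a, Kcnk2 and further named genes overlap such genes too. On the same strand, Kiss1 shares 100% of its exonic bases with Gm28040 and 13.1% with Golt1a. The part of these overlaps in the changes was not tested. Of 43 glutamate transmission genes 28 had changes below 0, with a median of -0.06, and 1 rose, Grik1, and of 31 GABA and glycine genes none passed (limma, median -0.00, 3 at an unadjusted p under 0.05). In that list Gad2, a GABA-synthesizing enzyme, was at 64.2, 76.4 and 81.2 in oil and at 109, 107 and 107 in E2 and passed without ERKO E2 3 (0.54 ± 0.17, adjusted p = 0.031 against 0.21).

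Of 42 feedback and small GTPase regulators of the MAPK and PI3K pathways 1 rose and none fell, with a median of -0.02. Single genes of kinase signalling outside that list also passed. Map2k1, the kinase MEK1 that activates ERK, was at 106, 109 and 113 FPKM in oil and at 150, 192 and 165 in E2, a ratio of 1.54 and a change of 0.61 ± 0.10 (limma, adjusted p = 0.0034). Map3k15, an upstream stress kinase gene on the X chromosome, was at 1.93, 2.27 and 1.36 in oil and at 5.31, 6.01 and 7.26 in E2 (1.34 ± 0.19, adjusted p = 0.0018). Ets2, a transcription factor that ERK phosphorylates, was at 26.8, 29.3 and 36.4 in oil and at 49.9, 55.4 and 49.5 in E2 (0.73 ± 0.12, adjusted p = 0.0036). All 3 genes passed in each of the 6 fits without 1 wild-type library. Rasd1, a small GTPase induced by dexamethasone, rose from 13.97, 9.36 and 11.0 to 30.6, 33.6 and 28.6 (1.37 ± 0.25, adjusted p = 0.011). It was the single call of the list. The sprouty feedback inhibitors Spry1 (4.83, 6.13 and 6.03 against 3.95, 3.52 and 4.29) and Spry4 had groups apart on the lower side and did not pass. The kinase Pim3 (0.71 ± 0.15), the guanine nucleotide exchange factor Net1 (0.85 ± 0.19), the SOCS-box protein Spsb1 (0.86 ± 0.12) and the phosphatase Ppm1j (1.08 ± 0.19) rose, with limma adjusted p-values of 0.041, 0.048, 0.0015 and 0.0080.

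Myc and Mycn, transcription factors that promote growth and ribosome production, rose. Myc, on chromosome 15, was at 3.14, 4.68 and 3.78 FPKM in oil and at 11.7, 9.78 and 9.36 in E2 (1.22 ± 0.16, limma, adjusted p = 0.00069). Mycn, on chromosome 12, was at 3.35, 2.37 and 2.40 in oil and at 6.15, 8.94 and 6.43 in E2 (1.14 ± 0.16, adjusted p = 0.0012). Nop56, a core protein of the particles that methylate ribosomal RNA, rose from 47.6, 43.8 and 43.4 to 66.6, 70.2 and 71.4 (0.62 ± 0.10, adjusted p = 0.0053). Gnl3, the nucleolar GTPase nucleostemin, rose from 15.7, 13.9 and 15.8 to 21, 20.1 and 20.9 (0.43 ± 0.08, adjusted p = 0.020). In Nop56 and Gnl3 the gap between the groups was larger than the range within either. Polr3d, a subunit of RNA polymerase III, and Ipo5, an importin, rose by 0.50 ± 0.10 and 0.38 ± 0.08 (adjusted p = 0.020 and 0.032), while Utp23, which acts in ribosomal RNA processing, fell by 0.62. The nucleolar proteins Npm1 (64.1, 65.1 and 65.0 against 95.8, 97.6 and 93.2) and Ncl (38.1, 36.2 and 37.4 against 46.0, 42.4 and 47.8) passed without ERKO E2 3 but not with it, with adjusted p of 0.0028 and 0.027 against 0.33 and 0.31. Fbl, the methylase partner of Nop56, overlapped (13.2, 11.5 and 12.2 against 14.6, 13.7 and 11.5). Gnl3, Ipo5, Npm1, Ncl and Fbl were named after their values were seen. No list of nucleolar genes was counted, so these genes do not show a shift of the nucleolar genes as a set.

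None of 73 cytosolic ribosomal protein genes passed in limma (1 at an unadjusted p under 0.05, and 1, Rpl15, without ERKO E2 3). Changes were positive for 65, with a median of 0.15. Of these genes 12 had groups apart on the higher side (16.4%, against 9.37% of all genes tested) and none on the lower (against 6.45%). Their summed level was 21339, 17786 and 16453 FPKM in oil and 21307, 21376 and 18006 in E2. These sums overlap, and oil 1 was as high as E2 1 and E2 2. The nuclear genes of the mitochondrial respiratory chain had sums that also overlapped, of 17649, 15651 and 14072 in oil and 17842, 16907 and 14428 in E2, and none of 75 passed in limma, also at an unadjusted p under 0.05 (0 of 75). Many ribosomal protein genes have near-identical pseudogenes, among which reads may be divided.

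Among 76 transcription factors of hypothalamic development 2 rose and 1 fell, with a median of -0.00. Groups were apart on the lower side for 12 (15.8%, against 6.45% of all genes tested) and on the higher for 4 (5.26%, against 9.37%). Sox3, a SOX factor of neural progenitors that is needed for the hypothalamus and pituitary to form, was the one that fell. It lies on the X chromosome and was at 29.5, 29.7 and 27.4 FPKM in oil and at 11.99, 10.8 and 8.95 in E2, 2.73 times lower, a change of -1.38 ± 0.15 (limma, adjusted p = 0.00013). Sox11 rose from 6.18, 5.70 and 7.05 to 8.63, 11.9 and 8.62 (0.54 ± 0.11, adjusted p = 0.032), and the POU factor Pou3f1 rose from 1.35, 1.89 and 1.78 to 4.68, 4.85 and 3.37 (0.98 ± 0.18, adjusted p = 0.011). The sum of the tanycyte markers, cells that line the third ventricle beside the arcuate nucleus, overlapped between the groups (566, 685 and 603 in oil, 625, 495 and 611 in E2), and none of its 16 genes passed in limma (0 at an unadjusted p under 0.05).

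**Figure D3:**
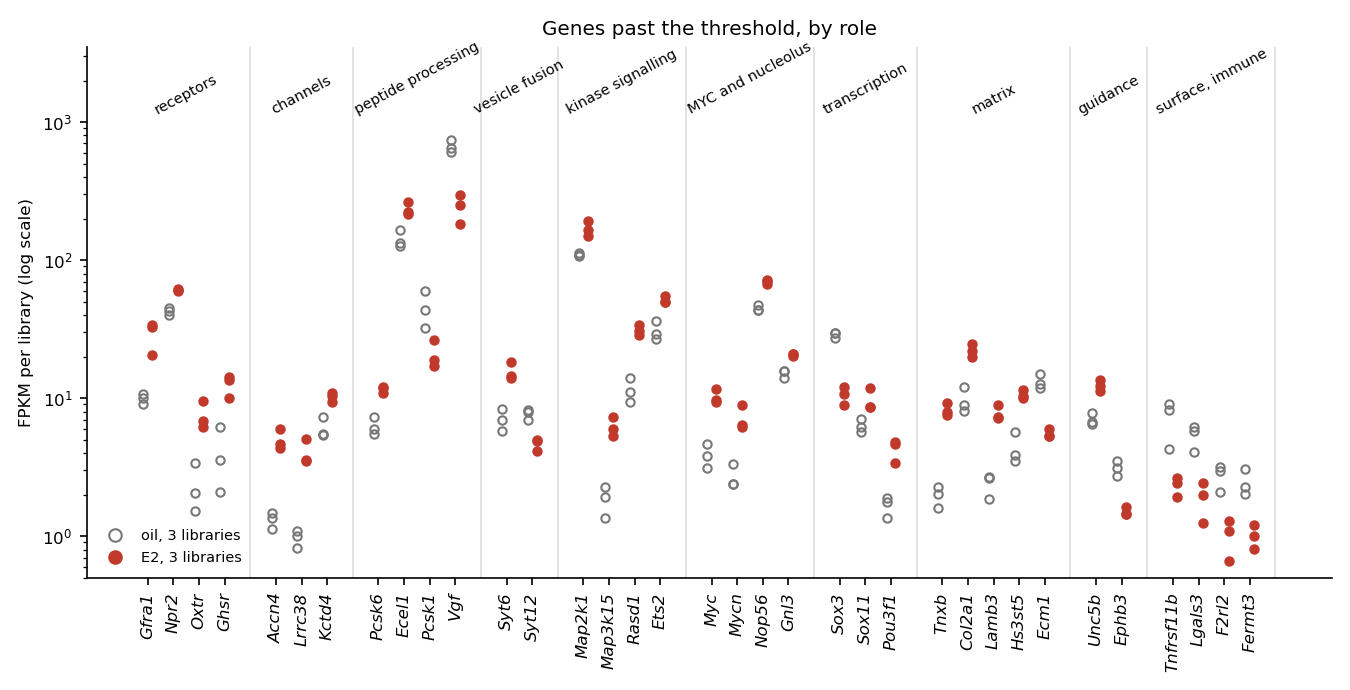
FPKM of genes past the threshold in each wild-type library on a log axis, grouped by role. Open grey circles are the 3 oil libraries and filled red circles the 3 E2 libraries. For every gene drawn the groups do not overlap; Npr2, Map2k1 and Nop56 are shifted by less than 2-fold with little spread, and Sox3 is lower in E2 in all 3 libraries.

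Several matrix genes changed. Of 72 collagens and other matrix genes 4 rose (Col24a1, Tnxb, Smoc2 and Col2a1), which is 5.56% against 0.602% of all genes tested, and none fell. However, 46 of the 72 changes were negative and the median was -0.11. With the pituitary marker covariate the median was 0.00, and 5 rose. Tnxb, the gene of tenascin X on chromosome 17, was at 1.60, 2.27 and 2.01 FPKM in oil and at 7.58, 9.27 and 7.96 in E2 (1.65 ± 0.17, limma, adjusted p = 7.2e-05). Col2a1, a fibrillar collagen, was at 12.01, 8.92 and 8.03 in oil and at 22.0, 24.7 and 20.01 in E2 (1.14 ± 0.21, adjusted p = 0.012). Lamb3, a laminin chain, rose from 2.67, 2.65 and 1.85 to 7.26, 8.87 and 7.19 (1.38 ± 0.21, adjusted p = 0.0027). Ecm1, a secreted matrix glycoprotein, fell from 14.9, 12.7 and 11.9 to 5.34, 5.28 and 5.98 (-1.11 ± 0.20, adjusted p = 0.0099). All 4 genes also passed with the pituitary marker covariate, and the part of mural and fibroblast-like RNA was not tested by itself. Hs3st5, which adds sulfate to heparan chains, rose from 3.53, 5.65 and 3.90 to 9.95, 10.4 and 11.4 (1.13 ± 0.14, adjusted p = 0.00044), and Galnt6, which starts mucin-type glycosylation, rose by 0.92 ± 0.14 (adjusted p = 0.0029). Of 50 matrix proteases and inhibitors none rose and 2 fell, Timp1 and Procr, with a median of -0.05.

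Guidance and adhesion genes held few calls. Of 66 axon guidance genes 1 rose and 1 fell, with a median of -0.09. Unc5b, a netrin receptor, rose from 7.81, 6.49 and 6.68 FPKM to 11.2, 13.5 and 12.2 (0.74 ± 0.13, limma, adjusted p = 0.012). Ephb3, an ephrin receptor, fell from 3.12, 3.49 and 2.74 to 1.44, 1.62 and 1.46 (-0.71 ± 0.11, adjusted p = 0.0028). Of 91 adhesion genes Slitrk2 rose (0.56 ± 0.12, adjusted p = 0.033), and outside the list Pvrl1 (nectin 1), Ajap1 and the membrane-actin linker Ezr rose by 0.78 ± 0.14, 0.51 ± 0.11 and 0.70 ± 0.13. Lrrtm1, a postsynaptic organizer, was at 22, 13.96 and 17.7 in oil and at 10.5, 12.1 and 5.81 in E2 and passed without ERKO E2 3 but not with it (adjusted p = 0.022 against 0.056). Of 91 Wnt, TGF-beta, BMP and Notch genes 1 rose, Bambi, a decoy receptor of the TGF-beta family (1.88, 2.46 and 1.96 against 3.33, 3.85 and 3.50, adjusted p = 0.032). Wnt4 was at 3.95, 2.74 and 3.51 in oil and at 6.43, 6.32 and 6.71 in E2, past the threshold without ERKO E2 3 but not with it (0.78 ± 0.19, adjusted p = 0.0044 against 0.088).

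Most activity-regulated genes had changes below 0 and few passed. Of 38 measured, 1 rose (Nr4a2) and 2 fell (Vgf and Bdnf), 26 were below 0 and the median was -0.18. Of these 38 genes 8 had groups apart on the lower side (21.1%, against 6.45% of all genes tested) and 4 on the higher (10.5%, against 9.37%). Their summed level was 1311, 1262 and 1156 FPKM in oil and 846, 759 and 657 in E2, a gap that is mostly Vgf (738, 650 and 605 against 298, 252 and 184). Fos, the usual marker of recent neuronal activation, overlapped (14.9, 17 and 13.3 against 16.5, 15.2 and 17.2). Jun (33.3, 37.8 and 33.9 against 27.7, 27.7 and 24.2), Arc (5.76, 11.3 and 8.64 against 4.69, 4.61 and 4.49) and Egr4 (4.65, 13.4 and 3.95 against 2.87, 2.05 and 2.43) passed without ERKO E2 3 but not with it, with adjusted p of 0.0080, 0.042 and 0.041. Oil 2 was the highest library for all 3. Fosl2 lay in the other direction with groups apart (8.68, 8.88 and 9.72 in oil, 13.4, 14.4 and 16.3 in E2). Its change of 0.64 ± 0.20 did not pass in either fit (limma, adjusted p = 0.20, and 0.053 without ERKO E2 3). Among 41 heat shock and endoplasmic reticulum stress genes Hspa1a fell (10.5, 13.03 and 12.7 against 6.27, 7.17 and 6.19, -0.79 ± 0.17, limma, adjusted p = 0.043). The median of the list was 0.01, with 23 changes above 0. Groups were apart on the lower side for 9 (22.0%, against 6.45% of all genes tested) and on the higher for 3 (7.32%, against 9.37%). Hspa1a shares most of its sequence with Hspa1b (7.77, 8.26 and 9.61 against 3.84, 4.95 and 3.84), so the division of reads between the pair is uncertain. The call of Hspa1a was lost in all 6 fits that left out 1 wild-type library.

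Of 35 complement, cytokine and chemokine genes 1 fell, Tnfrsf11b, and none rose, and 4 single genes with roles in immune cells or coagulation also fell. Tnfrsf11b, the decoy receptor osteoprotegerin, fell from 4.28, 9.04 and 8.19 FPKM to 2.63, 2.45 and 1.92 (-1.24 ± 0.19, limma, adjusted p = 0.0029). Lgals3 (galectin 3, which reactive microglia make) fell from 6.20, 5.83 and 4.05 to 1.24, 1.98 and 2.45 (-1.14 ± 0.23, adjusted p = 0.027), and the protease-activated receptor F2rl2 fell from 3.15, 2.09 and 2.95 to 1.09, 0.663 and 1.30 (-0.89 ± 0.16, adjusted p = 0.0093). Fermt3, an integrin activator of blood-derived cells, fell from 2.28, 3.06 and 2.03 to 1.20, 0.804 and 1.01 (-0.78 ± 0.15, adjusted p = 0.017). Ifitm1, a member of a clustered family of similar genes, fell from 2.71, 6.52 and 6.58 to 1.99, 1.26 and 0.874 (-1.35 ± 0.29, adjusted p = 0.041), and its oil 1 value lies closer to E2 than to the other oil libraries.

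Most microglia markers had changes below 0. None of 15 passed in limma (2 at an unadjusted p under 0.05), 13 were below 0, the median was -0.23, and their sums were 248, 239 and 222 FPKM in oil and 192, 180 and 211 in E2, so that the groups did not overlap. The part of microglial RNA in the falls above was not tested. The 35 complement, cytokine and chemokine genes had a median of -0.25. Groups were apart on the lower side for 9 of them (25.7%, against 6.45% of all genes tested) and on the higher for 1 (2.86%, against 9.37%). C4b, a complement component with a near-identical copy, was at 19.6, 22.7 and 17.97 in oil and at 8.13, 11.8 and 11.96 in E2 and passed without ERKO E2 3 but not with it (-0.87 ± 0.23, adjusted p = 0.012 against 0.098).

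The interferon and MHC class I list had the lowest median of all families, -0.44, with 31 of 32 genes below 0. However, no gene of the list passed in limma with or without ERKO E2 3 (6 at an unadjusted p under 0.05). Ifitm1, which fell as given above, is not in the list. Groups were apart for 3, on the lower side (9.38%, against 6.45% of all genes tested). Oil 1 was the high library. Ifit3, an antiviral gene, was at 63.6, 24.3 and 14.5 FPKM in oil and at 18.8, 14.2 and 17.3 in E2, and the chemokine Cxcl10 was at 16.3, 2.37 and 1.05 against 0.212, 1.07 and 0.872. Without oil 1 the median of the list was -0.20, and the summed levels overlapped (805, 669 and 602 in oil, 516, 486 and 630 in E2).

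Among glia, Olig2, a transcription factor of the oligodendrocyte lineage, was the single marker that fell, and the 12 markers of oligodendrocyte precursors had a median of -0.19 and sums of 190, 212 and 190 FPKM in oil and 185, 167 and 165 in E2, apart on the lower side. All 16 markers of mature oligodendrocytes had negative changes and none passed in limma (7 at an unadjusted p under 0.05), with a median of -0.35. Oil 2 was the highest library for 15 of the 16, and the sums overlapped (1969, 2201 and 1642 against 1676, 1229 and 1658). Gfap, the intermediate filament of astrocytes, was at 261, 359 and 277 in oil and at 159, 151 and 209 in E2 and passed without ERKO E2 3 but not with it (-0.79 ± 0.20, adjusted p = 0.024 against 0.10). The other 12 astrocyte markers all had overlapping groups, so that the lower Gfap was not shared by the list, whose median was 0.06. Of 49 cytoskeleton genes the neurofilament gene Nefm fell, and 38 were below 0.

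Other families had no gene past the threshold in limma. An unadjusted p under 0.05 was found for 1519 of all 14774 genes, and in these families for 9 of 79 genes of G protein, cyclic nucleotide and calcium signalling (median change 0.01), 1 of 19 glucocorticoid-responsive genes (0.13), 4 of 31 genes of thyroid hormone, retinoid and steroid metabolism (-0.06), 2 of 38 genes of cholesterol and fatty acid synthesis (-0.10) and 2 of 23 clock genes (0.00). Without ERKO E2 3 in the fit 4 of the signalling genes passed on the higher side, the kinases Prkce and Camk2d, the calcium sensor Hpcal1 and Pde10a. Crabp1, a retinoic acid binding protein, was at 154, 112 and 125 in oil and at 236, 281 and 218 in E2 and passed in the same way (0.91 ± 0.22, adjusted p = 0.0097 against 0.069). The sterol regulator Srebf2 was at 52.9, 57.4 and 55.2 in oil and at 44.3, 48.9 and 43.2 in E2 and was the only gene of its list to pass there. Of the 116 genes 50 belonged to any of the 36 families, whose tested genes number 1584.

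**Figure D4:**
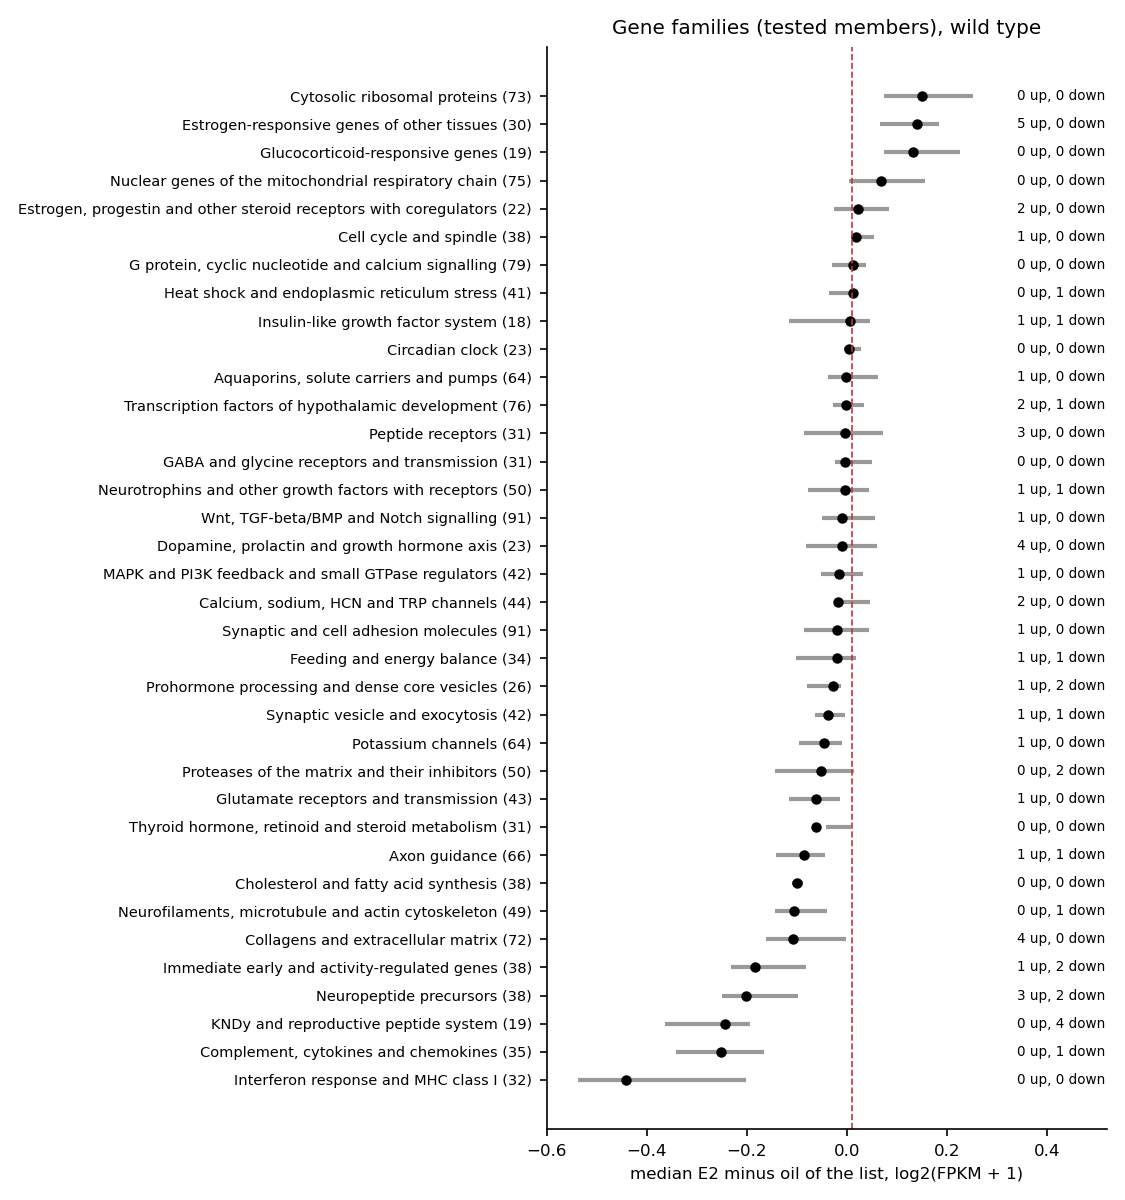
Median change of each of 36 gene families in wild type, E2 minus oil on log2(FPKM + 1), with the number of tested genes in parentheses. Points are medians over all 6 libraries, bars span the medians when 1 wild-type library is left out, the dashed line is the median of all genes tested (0.01), and the text at the right counts genes past the threshold. The interferon list lies lowest, with a bar from -0.54 to -0.20, and most families sit within 0.1 of the dashed line.

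Other genes outside the families rose by moderate and even amounts. Klhdc8b was at 48.2, 43.5 and 43.5 FPKM in oil and at 71.9, 79.6 and 64.8 in E2 (0.66 ± 0.12, limma, adjusted p = 0.011). Trp53i11 was at 87.6, 59.1 and 75.2 in oil and at 134, 138 and 145 in E2 (0.92 ± 0.16, adjusted p = 0.0089). Aldh9a1, an aldehyde dehydrogenase, rose from 26.9, 34.9 and 29.8 to 44.1, 45.0 and 42.6 (0.52 ± 0.10, adjusted p = 0.013). Fbxw7, the ubiquitin ligase subunit that marks MYC for destruction, rose from 20.1, 20.4 and 22.6 to 28.1, 30.5 and 29.6 (0.47 ± 0.09, adjusted p = 0.020), and Pdcd4, an inhibitor of translation, rose from 48.2, 38.6 and 50.6 to 71.2, 67.0 and 74.6 (0.63 ± 0.12, adjusted p = 0.017). The polycomb protein Rybp (0.69 ± 0.12), the RNA-binding protein Rbms3 (0.77 ± 0.14), the thiamine transporter Slc19a2 (0.46 ± 0.10) and the mitochondrial malic enzyme Me3 (0.62 ± 0.13) rose as well. The beta-defensin Defb18 had a listed value of 0 in oil 1, 2 and 3 and of 2.14, 5.76 and 1.01 in E2. It passed (limma, adjusted p = 0.021), but its call was kept in 1 of the 6 fits without 1 wild-type library. The implied number of fragments was only 5 in E2 2, its highest library, so these values lie near the floor.

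The calls varied in how far they rested on single libraries. Of the 116 genes 53 passed in all 6 fits that left out 1 wild-type library, 40 of the rises and 13 of the falls. Of the genes described above, Tnxb, Accn4, Syt6, Pcsk6, Ecel1, Map3k15, Ets2, Myc, Mycn, Hs3st5, Lamb3 and Sox3 were among them and also passed under the other 11 settings tried. Gfra1, Nts, Ghsr, Stc1, Kcnk2, Pim3, Net1, Ipo5, Utp23, Slitrk2, Bambi, Ifitm1, Fbxw7, Slc19a2 and Defb18 passed in 1 of the 6, and Cckar, Hspa1a and Me3 in 0 of the 6. Without oil 3 the count of genes past the threshold was 152, and without E2 1, E2 2 and E2 3 it was 71, 72 and 77.

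The same genes were set beside KIKO and ERKO by testing the difference of the responses. Over all genes the response differed from wild type for 20 genes in KIKO (0.135%) and for 41 in ERKO (0.278%). All but 1 of the KIKO genes and all of the ERKO genes were among the 116, which is no independent evidence, since the 116 were chosen on the wild-type libraries that enter the difference. The 89 risen genes had a median change of 0.88 in wild type, 0.03 in KIKO and -0.02 in ERKO. The 27 fallen genes had medians of -1.14, -0.23 and 0.15. In KIKO 24 of the 27 had the sign of wild type, and in ERKO 8 of the 27, but none of the 116 passed by limma in KIKO alone (18 at an unadjusted p under 0.05) or in ERKO alone (5).

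For Sox3 the KIKO value lay between the others. Its change was -1.38 in wild type, -0.75 in KIKO and -0.07 in ERKO. The difference from wild type was past the threshold in ERKO (1.31, limma, adjusted p = 0.010) and not in KIKO (0.63, adjusted p = 0.70), so a weaker response in KIKO was not shown. For Accn4, Lrrc38, Tnxb, Rab37 and Ccdc36 the rise was smaller than in wild type in both mutants past the threshold, by -1.46 and -1.32 for Accn4 and by -1.76 and -1.84 for Tnxb in KIKO and ERKO. Ephb3 differed in both as well, by 0.98 and 0.82. These contrasts share the wild-type libraries with the comparison above, and the ERKO values include ERKO E2 3.

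**Figure D5:**
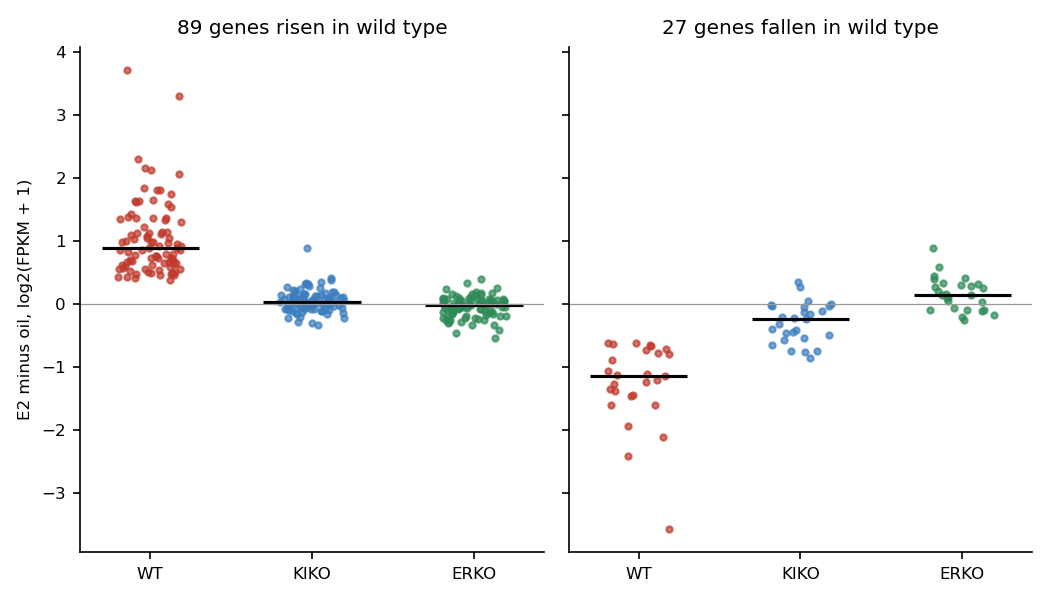
Change with estradiol, E2 minus oil on log2(FPKM + 1), in wild type (red), KIKO (blue) and ERKO (green) for the 89 genes that rose and the 27 that fell in wild type. Each point is a gene, spread sideways at random, and bars are medians. The genes were chosen on the wild-type values; in KIKO the fallen genes lie mostly below 0, and in ERKO they lie around it.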

How the data were processed

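The authors deposited 1 table of FPKM values per library (18 libraries, 3 per group), made with TopHat2 2.0 and Cuffdiff on mm10, per the submitters' processing notes. FPKM removes depth and length, and the counting settings are not given in the sources used here. Rows were summed by gene symbol (23235 symbols). Genes that averaged under 0.5 FPKM and 57 small RNA genes were left out, and log2(FPKM + 1) of the other 14774 was fitted with limma 3.58.1 (R 4.3.3) as 6 group means over all 18 libraries, with trended, robust variance, 12 residual degrees of freedom and Benjamini-Hochberg adjustment. The tests were tested on simulated data. The labels pair no libraries, so the fit has no replicate block. No counts were used. The confidence bounds deposited beside each FPKM imply a fragment number, whole within 0.02 for 72.2 to 74.1% of low genes in each library, and the ratio of that number to FPKM over 12741 genes gave the relative depth. Deposited positions do not lie on mm10 (4.81% of 20587 symbols start within 1000 bases), so only chromosomes are given for genes.

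The members and the gene lists were chosen with earlier results of these data known. The text names up to 25 rises and 20 falls of smallest p, up to 25 further genes past the threshold with a log2 change under 1, in each family up to 5 genes past the threshold and 3 others with groups apart, the leading markers of each cell type, and Esr1, Kiss1, Pgr and Greb1. A further 25 genes were named after their values were seen: Pde10a, Ica1, Dleu7, Gch1, Th, Spry4, Pim3, Net1, Ppm1j, Gnl3, Ipo5, Npm1, Ncl, Fbl, Ajap1, Fos, Jun, Lgals3, Ifitm1, Ifit3, Cxcl10, Camk2d, Slc19a2, Me3 and Defb18. Alternatives changed the pseudocount, filter, scaling, variance model, libraries in the fit and replicate block. The pituitary marker covariate, and each wild-type library left out of the fit without ERKO E2 3, were added after seeing the data. Some genes are not reported here.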

Additional observations from a re-analysis of the deposited data

Results flagged for a closer look

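The response to estradiol differed between wild type and a mutant, by the limma interaction test at an adjusted p under 0.05, for the named genes below. Values are the mutant's log2 change minus that of wild type, so a negative value for a gene that rose in wild type means a smaller or opposite change in the mutant. The genes were chosen on their wild-type change, which enters each difference, and the ERKO values include ERKO E2 3.

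Of the genes that rose in wild type and differed in both mutants, KIKO minus wild type was -1.46 for Accn4, -3.13 for Aqp5, -1.12 for Ccdc36, -2.05 for Col24a1, -2.27 for Fam151a, -2.05 for Greb1, -1.19 for Lrrc38, -2.32 for Mad2l1, -1.76 for Nr4a2, -1.57 for Phf21b, -1.15 for Rab37, -3.70 for Rln3 and -1.76 for Tnxb. ERKO minus wild type was -1.32 for Accn4, -3.23 for Aqp5, -1.21 for Ccdc36, -2.13 for Col24a1, -2.33 for Fam151a, -2.18 for Greb1, -1.32 for Lrrc38, -2.35 for Mad2l1, -2.08 for Nr4a2, -2.13 for Phf21b, -1.28 for Rab37, -3.67 for Rln3 and -1.84 for Tnxb. Of the genes that fell and differed in both, KIKO minus wild type was 0.98 for Ephb3 and 2.72 for Kiss1, and ERKO minus wild type was 0.82 for Ephb3 and 4.16 for Kiss1.

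In ERKO alone the difference passed for genes that rose, with -1.18 for Hs3st5, -0.69 for Map2k1, -1.42 for Map3k15, -1.37 for Mycn, -0.85 for Pcsk6, -1.97 for Pgr, -1.01 for Syt6, -0.99 for Tmem90a and -0.99 for Unc5b. It also passed for genes that fell, with 1.44 for Ecm1, 1.14 for F2rl2, 2.56 for Igfbp2, 1.44 for Lhfpl1, 1.89 for Nxph3, 0.73 for Olig2, 1.87 for Procr, 1.31 for Sox3, 1.83 for Tacr3, 3.00 for Timp1 and 1.86 for Vgf. In KIKO alone it passed for Cyp2s1 (-1.21) and Syt12 (0.97). A difference past the threshold in 1 mutant and not in the other does not show that the mutants differ, which was not tested.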

How the results depend on the processing

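No named gene past the threshold reversed direction under any alternative run. The count of 116 genes past the threshold (89 higher, 27 lower) became 397 (284 and 113) without ERKO E2 3 in the fit, 209 (151 and 58) with array weights, and 71 with only the wild-type libraries in the fit, of which 51 were higher. Leaving out 1 wild-type library gave 71 to 152 in all, 50 to 102 higher and 16 to 50 lower. Without ERKO E2 3 in the fit the same gave 220 to 703, 155 to 486 and 59 to 217. Of the 116 genes, the responses that differed in KIKO numbered 19, against 9 at a pseudocount of 0.1, 37 without ERKO E2 3 and 11 to 21 without 1 wild-type library. In ERKO they numbered 41, against 29 to 44 without 1 wild-type library. Deviations of oil and E2 libraries with the same number from their group means had r = 0.290, -0.181 and 0.383 over genes. Between libraries with different numbers r ran from -0.460 to 0.309. The labels pair no libraries, and whether those with the same number share a batch was not tested. With the replicate block 61 genes passed, 44 higher and 17 lower, and 19 differed in ERKO. The cause of these shifts was not tested. With 3 libraries a group and no counts, small changes of low genes are not resolved.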
